A study of Mus musculus with 32 samples.

Results

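Expression of 9 transcription factors of urothelial identity (Gata3, Foxa1, Grhl3, Pparg, Ehf, Elf3, Klf5, Trp63 and Ovol1) was read from bulk RNA sequencing of 32 whole mouse bladders. They were chosen by name, as the rows of the gene count table whose Ensembl identifiers carry these symbols, and are 9 of 32285 genes in that table. All mice were female C57BL/6, and each library was made from 1 bladder. Untreated bladders came from young (2 months, n = 6), middle-aged (10 months, n = 5) and old (26 months, n = 6) mice. Further old mice were gavaged on 3 consecutive days each month from 21 months of age until collection at 26 months, with water (n = 5), with vehicle (a mixture that was 60% Phosal 50 PG and 10% ethanol, the other 30% being polyethylene glycol 400, n = 4) or with the senolytic combination D + Q (dasatinib at 5 and quercetin at 50 mg/kg/day, n = 6). Senolytics are drugs meant to clear senescent cells. The labels name no transgene. A whole bladder holds urothelium together with muscle, connective tissue, vessels, nerves and immune cells, so a level here is that of the organ.

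The urothelium is a layered epithelium in which basal cells attach to the basement membrane, intermediate cells lie above them and large umbrella cells face the urine. Trp63 encodes p63, the factor of basal cells of stratified epithelia. Pparg encodes a nuclear receptor for fatty acid ligands, and together with Gata3, a zinc finger factor, and Foxa1, a forkhead factor that opens chromatin, it is known for holding cells in the luminal urothelial program. Grhl3 encodes a grainyhead factor of epithelial barriers and of umbrella cell maturation. Klf5 (a Krüppel-like factor), Elf3 and Ehf (ETS factors of epithelia) and Ovol1 (a zinc finger factor that restrains mesenchymal genes) complete the set. Several of these genes are also used outside the urothelium: Gata3 in T cells and innate lymphoid cells, Pparg in fat cells, Klf5 in smooth muscle.

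Promoter sequence was matched for 5 of the 9 genes (Gata3, Foxa1, Grhl3, Elf3 and Pparg, the last with 3 starts), in RefSeq models on build GRCm38.p6. Gata3 and Foxa1 are shown because they were the pair whose levels moved most closely together from bladder to bladder. Each run is the 250 bases before the RefSeq start, 5′ to 3′ on the minus strand, which both genes use. Capitals mark, for Foxa1, the one match to the forkhead letters TGTTTAC (on the opposite strand) and, for Gata3, the 3 matches to the Krüppel-like letters CCNCNCCC on either strand. The Foxa1 run also holds Krüppel-like matches, between 117 and 90 bases before its start, which are left in small letters. Windows of Elf3, Grhl3 and Pparg hold such matches as well.

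Foxa1, chr12:57546112-57546361: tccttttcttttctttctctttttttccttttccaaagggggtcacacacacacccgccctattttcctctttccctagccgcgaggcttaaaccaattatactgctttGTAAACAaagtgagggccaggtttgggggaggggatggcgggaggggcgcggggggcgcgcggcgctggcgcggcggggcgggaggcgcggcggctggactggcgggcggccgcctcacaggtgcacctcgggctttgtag
Gata3, chr2:9878601-9878850: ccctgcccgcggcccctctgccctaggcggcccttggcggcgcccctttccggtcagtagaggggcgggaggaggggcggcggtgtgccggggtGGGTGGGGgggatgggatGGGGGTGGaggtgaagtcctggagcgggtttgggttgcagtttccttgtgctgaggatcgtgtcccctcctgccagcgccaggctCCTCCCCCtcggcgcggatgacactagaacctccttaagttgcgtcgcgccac

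The forkhead match lies 141 to 135 bases before the Foxa1 start. In 32851 RefSeq windows, letters were searched in the 250 bases before the start. On either strand, 3.17% held these forkhead letters, while 45.9% held the Krüppel-like letters, which can overlap one another in C-rich sequence. In these bases no window of the 5 genes held AGATAA, AACCNGTT or CCGGAAG on either strand. These are letters of the families of Gata3, of Grhl3 and of the ETS factors. They were held by 9.99%, 1.79% and 6.91% of all windows, so their absence from so few windows is unremarkable. A match is a run of letters and not a measured binding site. The gene models used for counting reach further: Gata3 spans chr2:9857078-9890034 and Foxa1 spans chr12:57540628-57546916, both on the minus strand, so both printed windows lie inside the counted gene body. The Gata3 window also lies within Gm13256, a gene on the opposite strand. On the same build (mm10), Grhl3 lies at chr4:135541888-135573630, Elf3 at chr1:135253575-135258568, Ehf at chr2:103263433-103303278 and Ovol1 at chr19:5549136-5560646, all on the minus strand. Pparg lies at chr6:115360951-115490399, Klf5 at chr14:99298691-99315036 and Trp63 at chr16:25683763-25892102, on the plus strand. Values are counts over the exons listed for each gene in the count table.

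Libraries held 15088372 to 52650259 counts, and 4 bladders (young replicates 3 and 4, water replicate 1 and vehicle replicate 4) held under 22000000. All 9 genes were detected in every bladder, with 116 to 9744 counts each. No pair of libraries was identical. The labelled organ was checked against its markers. The 7 umbrella cell markers summed to 3617 to 5035 CPM (counts scaled to one common library total) over all bladders and the 6 smooth muscle markers to 24377 to 39271 CPM. The 7 stratified squamous genes summed to 375 to 577 CPM, with 5 of 7 high enough to be tested, while the other two, Krt6a and Flg, were at 3 counts or fewer in all 32 bladders. The 5 B cell genes summed to at most 8.77 CPM in young and middle-aged bladders together and to 24.5 to 318 CPM in the old ones. The labels name no batch or date of sequencing.

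Levels of different genes were compared as TPM, which divides by exon length before scaling to a common total. Gata3 had the highest mean, 160 ± 14 TPM (SD, n = 32), followed by Foxa1 at 148 ± 14 and Grhl3 at 146 ± 20 TPM. Gata3 was above Foxa1 in 30 of 32 bladders, but Foxa1 was above Grhl3 in only 19, so the order of the latter pair was not resolved. A middle tier held Pparg (96.7 ± 10.1 TPM), Ehf (95.2 ± 9.5) and Elf3 (93.1 ± 13.2), whose order also changed from bladder to bladder, Pparg being above Ehf in 16 and Ehf above Elf3 in 20 of 32. Grhl3 exceeded Pparg, and Elf3 exceeded Klf5, in all 32 bladders. Klf5 (71.9 ± 8.8 TPM) was above Trp63 (64.0 ± 7.7) in 26 of 32. Ovol1 was the lowest in every bladder, at 11 ± 2.1 TPM. The length used is that of all listed exons together, and at 8391 bases it was longest for Trp63. Mean CPM, with no division by length, was 156 for Trp63 and 109 for Klf5, so the order of Klf5 and Trp63 depends on that length.

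The values that follow are CPM after scaling by TMM, a factor per library that aligns the bulk of genes, and compare 1 gene across bladders. The plot of CPM by group shows them all.

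**Figure D1:**
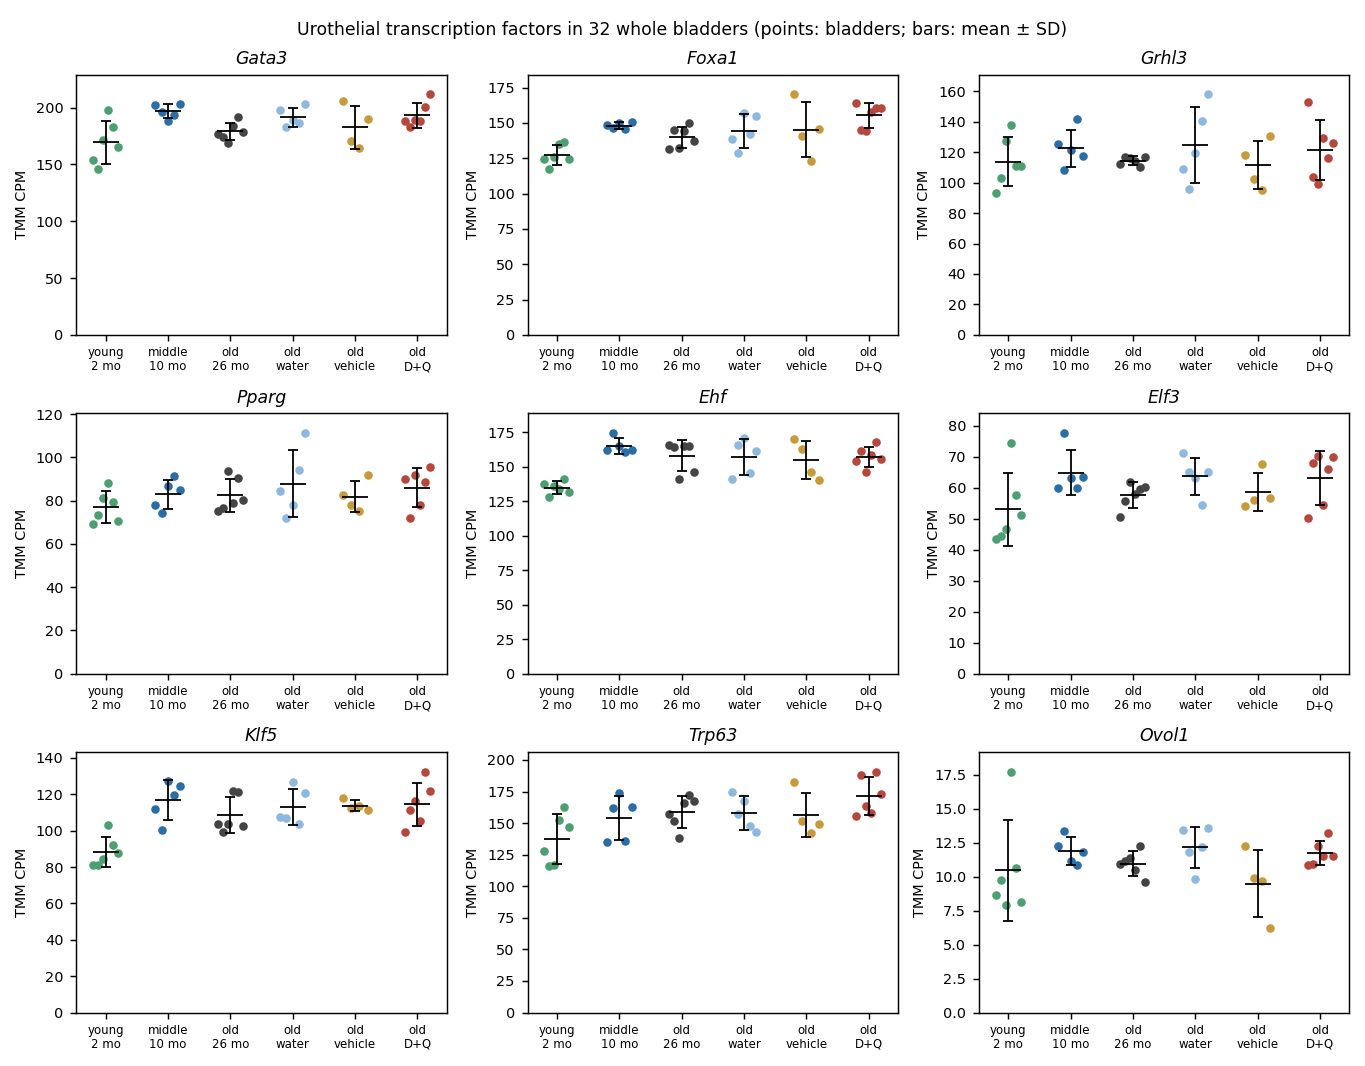
CPM after TMM scaling of each of the 9 transcription factors (1 panel per gene, axes from 0) in the 6 groups, with 1 point per bladder and the mean ± SD in black. For Ehf all 5 middle-aged bladders (160 to 175 CPM) lie above all 6 young ones (128 to 141 CPM), whereas the 4 old groups overlap one another in every panel.

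Bladder maturation was examined by comparing middle-aged with young bladders. Ehf, Foxa1 and Klf5 rose from 2 to 10 months, by 23.3%, 17.3% and 33.4%. The other 6 genes did not pass the test. Of the 16754 genes tested, 4.96% were called higher and 5.85% lower (10.8% in either direction), against 3 of these 9 higher and none lower in edgeR's quasi-likelihood test with Benjamini-Hochberg adjustment. At an unadjusted p under 0.05 there were 5 of the 9, beside 27.2% of all genes. The median log2 fold change of the 9 was 0.23, beside 0.0028 over all genes. In whole bladders a larger share of urothelial cells cannot be told apart from more RNA per urothelial cell.

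Ehf, an ETS factor, ranged from 128 to 141 CPM in young bladders (median 135). In the middle-aged bladders it was at 162, 175, 165, 160 and 162 CPM, all above every young one. CPM of every middle-aged bladder above every young one was found for 3.37% of the genes tested. The difference was 0.30 on the log2 scale (SE 0.04, 95% confidence interval 0.21 to 0.39, edgeR adjusted p = 0.0017).

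Foxa1, the forkhead factor, ranged from 118 to 137 CPM in young bladders (median 125). The middle-aged bladders were tightly grouped at 148, 146, 150, 145 and 150 CPM, again with no overlap. Its log2 difference was 0.23 (SE 0.05, interval 0.13 to 0.33, edgeR adjusted p = 0.010).

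Klf5, which marks proliferating and maturing epithelia, ranged from 81.0 to 103 CPM in young bladders (median 86.1). Middle-aged bladders were at 112, 100, 127, 120 and 125 CPM, so 1 of the 5 (100 CPM) fell below the highest young bladder. Klf5 had the widest difference of the 9, 0.42 on the log2 scale (SE 0.07, interval 0.25 to 0.58, edgeR adjusted p = 0.0058).

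Gata3 came close to the threshold. Young bladders ranged from 146 to 198 CPM (median 168) and middle-aged bladders were at 202, 196, 188, 194 and 203 CPM, which sat in the upper part of the young range or above it. Its log2 difference of 0.23 had an interval of 0.07 to 0.38 and an edgeR adjusted p of 0.057. It was called with DESeq2 and in 1 fit of all 6 groups, which both gave 4 members in place of 3. Of all genes, these settings called 15.9% and 15.8%, beside 10.8% in the main fit.

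Elf3, the second ETS factor, ranged from 43.5 to 74.5 CPM in young bladders (median 48.9) and was at 60.0, 77.7, 63.0, 60.0 and 63.4 CPM in middle-aged ones. The highest young value, from replicate 4, overlapped the middle-aged bladders, and the log2 difference was 0.30 (interval 0.03 to 0.58, edgeR adjusted p = 0.14). Ovol1 was likewise spread in young bladders, from 7.91 to 17.7 CPM (median 9.22), against 12.3, 13.4, 11.1, 10.8 and 11.8 CPM at 10 months. The highest young bladder was once more replicate 4, and the difference of 0.20 had an interval of -0.19 to 0.59.

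Trp63, the basal factor, ranged from 116 to 163 CPM at 2 months and was at 135, 162, 174, 136 and 163 CPM at 10 months, a log2 difference of 0.18 (interval -0.04 to 0.39, edgeR adjusted p = 0.28). Grhl3 ranged from 93.6 to 138 CPM and then from 109 to 142 CPM (difference 0.12, interval -0.08 to 0.33). Pparg ranged from 69.1 to 88.4 CPM and then from 74.2 to 91.2 CPM (difference 0.12, interval -0.04 to 0.28). For these 3 genes the groups overlapped and the intervals held both no change and a rise of the size seen for Foxa1.

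Of the 8 pan-urothelial genes, 2 rose from 2 to 10 months, Cldn7 (a tight junction claudin, log2 difference 0.41) and Epcam (an epithelial adhesion molecule, 0.33), and the other 6 did not pass. The mean log2 level of the 8, called the epithelial score here, was 7.62 to 8.06 in young and 8.003 to 8.064 in middle-aged bladders. Of the young bladders only replicate 4 reached the middle-aged range, so a fit with both can hardly separate age from score. With this score as a covariate, Ehf stayed past the threshold with a difference of 0.28 (edgeR adjusted p = 0.032), while Foxa1 (0.15, adjusted p = 0.12) and Klf5 (0.27, adjusted p = 0.098) did not, and 1.96% of genes were called. The fibroblast genes fell in the same comparison, 3 of 5 passing the test, led by Col3a1 (-1.33) and Col1a1 (-1.07), and summed to 10679 to 20020 CPM in young and 7223 to 8829 CPM in middle-aged bladders; their part in the members' values was not tested.

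The 4 bladders of low depth include 2 of the 6 young ones. Without them, an alternative added after the values were seen, 7 of the 9 genes were called higher (22% of all genes in either direction), the additional ones being Gata3 (0.29), Elf3 (0.40), Ovol1 (0.36) and Grhl3 (0.24). Leaving out young replicate 4 alone brought in Elf3 (0.42), Ovol1 (0.39) and Gata3 (0.27).

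Late aging was examined by comparing old with middle-aged bladders, which shares the middle-aged bladders with the comparison above. Gata3 alone of the 9 was called: it fell by 9.01%, from 202, 196, 188, 194 and 203 CPM to a range of 169 to 192 CPM (median 178). Of the 6 old bladders 5 lay under every middle-aged one, and the highest old value, 192 CPM, stood above the lowest middle-aged value, 188 CPM. The log2 difference was -0.14 (SE 0.03, interval -0.21 to -0.06, edgeR adjusted p = 0.013). Of all 17156 genes tested, 24% were called in either direction, 11% lower and 13% higher, and 35.8% had an unadjusted p under 0.05, so 1 of 9 called and 3 of 9 at an unadjusted p under 0.05 were near the shares of genes at large. The median log2 fold change of the 9 was -0.10, beside -0.0047 over all genes.

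The other luminal and epithelial factors were not called, and their intervals lay near or across 0. The Elf3 difference was larger than that of Gata3, with a larger SE (0.07). Elf3 was at 50.5 to 61.7 CPM in old bladders (difference -0.17, interval -0.32 to -0.02, edgeR adjusted p = 0.10) and Foxa1 at 131 to 150 CPM (-0.082, interval -0.16 to -0.0049, adjusted p = 0.12). Ovol1 (-0.12), Klf5 (-0.11), Grhl3 (-0.10) and Ehf (-0.061) had intervals that included 0. Pparg differed by -0.0077 (interval -0.15 to 0.14) and Trp63 by 0.045 (interval -0.12 to 0.21), and these intervals leave out a change as large as that of Klf5 between 2 and 10 months. Grhl3 was the most uniform in old bladders, at 110 to 117 CPM in all 6.

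Of the 8 pan-urothelial genes, 6 fell from 10 to 26 months, the most in Epcam (-0.29) and Cldn7 (-0.20), and the epithelial score was 7.81 to 7.95 in old bladders, below every middle-aged bladder. With the score as a covariate the Gata3 difference lost its call (edgeR adjusted p = 0.92, 1.32% of genes called), and in 1 fit of all 6 groups it was -0.14 (adjusted p = 0.14), also not called. The T cell and innate lymphoid list, in which Gata3 is also used, moved the opposite way: 7 of its 8 genes rose, and it summed to 18.3 to 24.7 CPM in middle-aged and 51.7 to 97.4 CPM in old bladders. How far either list takes part in the Gata3 value was not tested beyond the covariate fit.

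Over the whole span, old bladders were compared with young ones. Ehf, Klf5 and Foxa1 were higher at 26 than at 2 months, by 17.4%, 23.3% and 10.1%, with 12.6% of the 16873 genes tested called higher, 12.4% lower and 25.1% in either direction. At an unadjusted p under 0.05 there were 4 of the 9 and 36.3% of all genes. Old bladders held 141 to 166 CPM of Ehf (median 165), and 1 of the 6 old bladders overlapped the highest young one (log2 difference 0.23, SE 0.05, edgeR adjusted p = 0.0030). For Klf5 they held 99.5 to 122 CPM (median 104), and the groups overlapped only through the 103 CPM of young replicate 4 (difference 0.30, SE 0.07, adjusted p = 0.0066). Foxa1 reached 131 to 150 CPM (median 141) with more overlap (difference 0.14, SE 0.05, adjusted p = 0.043), and its call was lost in 8 of the 12 fits that each left out 1 bladder (young replicates 1, 2, 3 and 6, old replicates 2, 4, 5 and 6). Ehf and Klf5 were called in all 12. Leaving out young replicate 4 brought the calls to 5, with Elf3 and Ovol1, and leaving out young replicate 5 brought in Trp63.

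Trp63 was at 138 to 173 CPM in old bladders (median 162), a log2 difference of 0.21 from young ones with an interval of 0.03 to 0.40 and an edgeR adjusted p of 0.091. Elf3 (0.13), Pparg (0.10), Gata3 (0.081), Ovol1 (0.073) and Grhl3 (0.012) did not pass the test. For Gata3 the interval was -0.06 to 0.22 and for Grhl3 -0.15 to 0.18. With the epithelial score as a covariate the same 3 genes were called in this comparison, at 0.22 for Ehf, 0.25 for Klf5 and 0.11 for Foxa1 (31.6% of genes called), and none of the 8 pan-urothelial genes was called in it (no gene of the 8 at an unadjusted p under 0.05). In the same comparison 4 of 5 fibroblast and 3 of 6 smooth muscle genes were called lower, 5 of 5 B cell genes higher, and of 8 T cell and innate lymphoid genes 7 higher and 1 lower. Their part in the members' values was not tested.

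**Figure D2:**
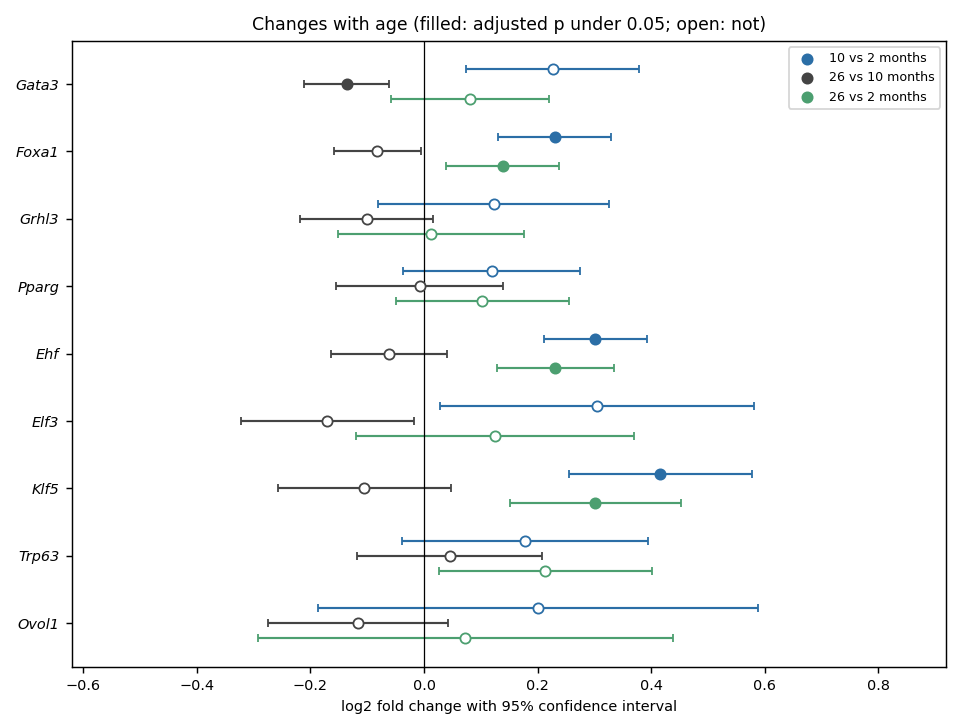
Log2 fold changes of the 9 genes (rows, ordered by TPM) between ages, with 95% confidence intervals from edgeR; filled points passed an adjusted p of 0.05 and open points did not. All 9 points of the 10 against 2 months comparison lie right of 0, and Ehf, Foxa1 and Klf5 are filled there and in the 26 against 2 months comparison, while Gata3 (-0.14) is the one filled point in the 26 against 10 months comparison.

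Whether the second interval of life differed from the first was tested directly, as the change from 10 to 26 months minus the change from 2 to 10 months. This contrast was below 0 past the threshold for 4 of the 9 genes, with 3.67% of 17376 genes lower, 7.17% higher and 10.8% called in either direction, and at an unadjusted p under 0.05 for 5 of the 9 and 26.4% of genes. The values were -0.50 for Klf5 (SE 0.13, edgeR adjusted p = 0.023), -0.34 for Ehf (SE 0.08, adjusted p = 0.013), -0.34 for Gata3 (SE 0.11, adjusted p = 0.046) and -0.29 for Foxa1 (SE 0.08, adjusted p = 0.021). Both changes are taken from the same 5 middle-aged bladders, so a value high in these bladders enters the contrast from both sides. Elf3 (-0.46), Ovol1 (-0.30), Grhl3 (-0.20), Trp63 (-0.11) and Pparg (-0.11) did not pass. Ehf kept its call in all 17 fits that left out 1 bladder, Klf5 in 15, Foxa1 in 14 and Gata3 in 5. Without middle-aged replicate 3, and likewise without replicate 5, only Ehf was called, and without young replicate 4 there were 6 calls, with Elf3 and Ovol1. Without the 4 bladders of low depth 7 of the 9 were called (22.2% of genes). With the epithelial score as a covariate none of the 9 was called (0.253% of genes). The score of every old bladder lay below every middle-aged one, so that fit cannot separate score from age.

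In 4 of the 9 genes the mean of the middle-aged bladders was the highest of the 6 groups: Ehf at 165 ± 6 CPM (SD, n = 5), Gata3 at 197 ± 6, Klf5 at 117 ± 11 and Elf3 at 64.8 ± 7.4. The young mean was the lowest for Ehf, Gata3, Klf5, Elf3, Foxa1, Pparg and Trp63, whereas for Grhl3 and Ovol1 the vehicle group was lowest. Of the 26 bladders from older mice, treated or not, 23 held more Ehf than any young bladder, and 22 did so for each of Foxa1 and Klf5. For Ovol1 none did, since young replicate 4 had the highest Ovol1 value of all.

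The gavage itself was examined first, by comparing water-treated and vehicle-treated with untreated old bladders. None of the 9 genes was called in either comparison by edgeR or by DESeq2, where 1% of 17250 genes (water) and 0% of 17440 genes (vehicle) were called by edgeR (by DESeq2, 4.08% and 0.757%). With water, 2 of the 9 had an unadjusted p under 0.05 (16% of all genes): Elf3, at 71.0, 65.0, 63.2, 54.5 and 64.9 CPM against 50.5 to 61.7 CPM untreated (0.15, interval 0.00068 to 0.29, edgeR adjusted p = 0.31), and Gata3, at 198, 183, 189, 186 and 203 CPM against 169 to 192 CPM (0.10, interval 0.02 to 0.18, adjusted p = 0.22). In both genes the water and untreated bladders overlapped. The remaining water differences ran up to 0.15 in Ovol1 and down to -0.0080 in Ehf.

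With vehicle, no member had an unadjusted p under 0.05 (8.39% of all genes). The differences lay between -0.20 in Ovol1 (interval -0.54 to 0.13) and 0.066 in Klf5 (interval -0.07 to 0.21). Ovol1 was at 12.2, 9.87, 9.64 and 6.18 CPM in the 4 vehicle bladders, the lowest being replicate 4, one of the shallow libraries with 130 Ovol1 counts. Klf5 was narrow in this group, at 118, 112, 114 and 111 CPM.

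Of the 8 pan-urothelial genes 2 were called higher after water, Krt18 and Epcam, keratin and adhesion genes of simple epithelia at log2 differences of 0.28 and 0.27, and the other 6 did not pass. The epithelial score ran from 7.92 to 8.18 in water, 7.96 to 8.12 in vehicle and 7.93 to 8.26 in D + Q bladders, beside 7.81 to 7.95 in untreated old ones.

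D + Q was compared with untreated old bladders, and none of the 9 genes was called by edgeR (0% of 17037 genes) or by DESeq2 (1.09% of genes). At an unadjusted p under 0.05 there were 2 of the 9 and 12.9% of all genes. Foxa1 had the smallest unadjusted p. It ranged from 145 to 164 CPM in D + Q bladders (median 159) and from 131 to 150 CPM in untreated ones (median 141), 4 of the 6 treated bladders being above every untreated one. The log2 difference was 0.15 (SE 0.05, interval 0.05 to 0.25, edgeR adjusted p = 0.28). Gata3 ranged from 183 to 212 CPM (median 189) against 169 to 192 CPM, a difference of 0.11 (interval 0.02 to 0.20, edgeR adjusted p = 0.34).

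Ehf was the least changed gene with D + Q, at 146 to 168 CPM (median 157), a difference of -0.0083 with an interval of -0.11 to 0.10. Trp63 was at 155 to 191 CPM, above the untreated maximum of 173 CPM only in part of the bladders, and Pparg, whose product is a drug target in fat, was at 72.0 to 95.4 CPM against 75.4 to 93.7 CPM. All intervals for D + Q against untreated bladders lay between -0.11 and 0.31, so a rise as large as that of Klf5 between 2 and 10 months (0.42) was outside each of them.

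Against vehicle, the solvent control, no member was called after D + Q by edgeR or DESeq2, and none had an unadjusted p under 0.05 (4.18% of genes did; edgeR called 0% of 17267 genes and DESeq2 0.0637%). Differences ran from 0.0049 in Klf5 (interval -0.15 to 0.16) to 0.30 in Ovol1 (interval -0.03 to 0.62). Ovol1 was at 10.8 to 13.2 CPM with D + Q, above 3 of the 4 vehicle bladders. Against water, differences ran from -0.058 in Ovol1 (interval -0.25 to 0.13) to 0.11 in Trp63 (interval -0.04 to 0.27), with 0 members called by either tool and 0 at an unadjusted p under 0.05 (7.82% of all genes; 0% of 17161 genes called by edgeR, 0.402% by DESeq2). Vehicle against water gave -0.35 in Ovol1 (interval -0.75 to 0.04) and 0.0092 in Foxa1 (interval -0.19 to 0.21) as its ends, with 0 members called by either tool and 0 at an unadjusted p under 0.05 (1.86% of all genes; 0% of 17294 genes called by edgeR and by DESeq2).

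The mean of the 3 gavaged groups was also set against untreated old bladders in 1 fit. The differences ran from -0.010 in Ehf (interval -0.11 to 0.09) to 0.10 in Elf3 (interval -0.04 to 0.25), and edgeR called 0 of the 9 (0% of 17893 genes) with 0 at an unadjusted p under 0.05 (12.6% of genes). For the pan-urothelial list, 7 of 8 genes had an unadjusted p under 0.05 in this contrast and 0 were called.

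**Figure D3:**
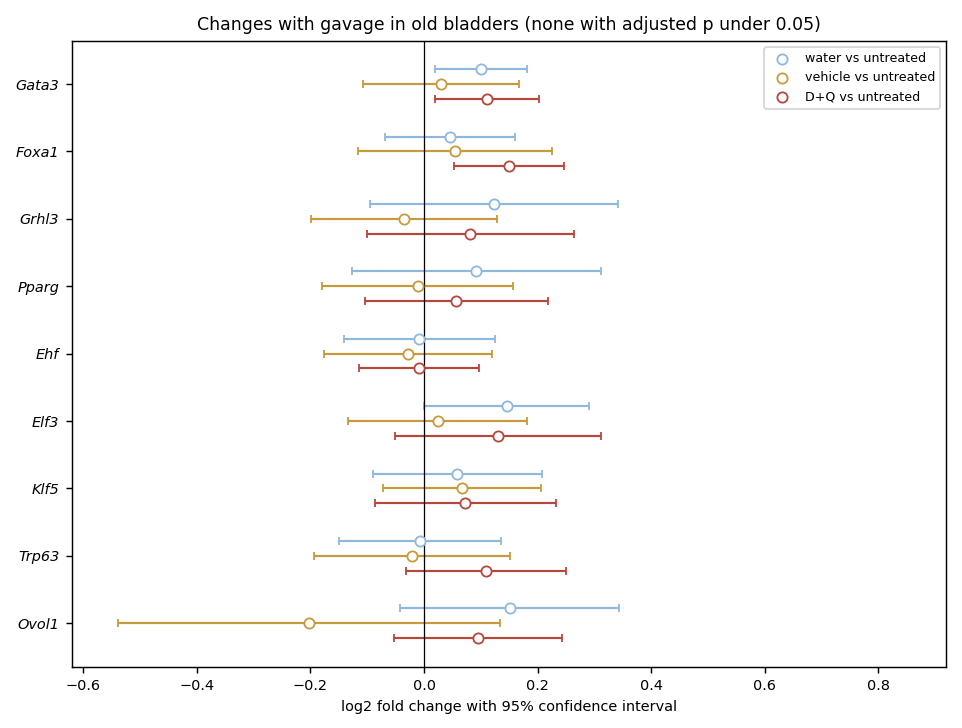
Log2 fold changes of the 9 genes in water-, vehicle- and D + Q-treated against untreated old bladders, with 95% confidence intervals from edgeR. No point passed an adjusted p of 0.05, and the widest interval is that of Ovol1 with vehicle, from -0.54 to 0.13.

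Bladders of 1 group differed in how much urothelial RNA they gave, and the members followed that to different degrees. After removing each group's mean, log2 levels were compared with the epithelial score over the 32 bladders, as 11 relations with p from 100000 permutations within groups. Gata3 followed it most closely (Pearson r = 0.83, permutation p = 1e-05, the smallest these permutations can give, adjusted 0.00011, Spearman rho = 0.82). Klf5 (r = 0.67, permutation adjusted p = 0.00033, rho = 0.65), Pparg (r = 0.63, permutation adjusted p = 0.0015, rho = 0.62) and Foxa1 (r = 0.50, permutation adjusted p = 0.015, rho = 0.54) also passed. Without the 2 bladders farthest from the median of the score (young replicate 4 and D + Q replicate 6) these were 0.76, 0.60, 0.57 and 0.49.

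Elf3 had r = 0.56 (permutation adjusted p = 0.030, rho = 0.42 with adjusted p = 0.084), but r = 0.37 without those 2 bladders, so this relation rested on them. Grhl3 (r = 0.41, rho = 0.38), Ovol1 (0.33 and 0.26) and Trp63 (0.31 and 0.25) did not pass, with permutation adjusted p of 0.092, 0.21 and 0.21. Ehf showed r = 0.058 (rho = 0.069, permutation adjusted p = 0.74). Across the bladders of a group Ehf therefore varied apart from the epithelial score, as the plot of residuals shows.

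**Figure D4:**
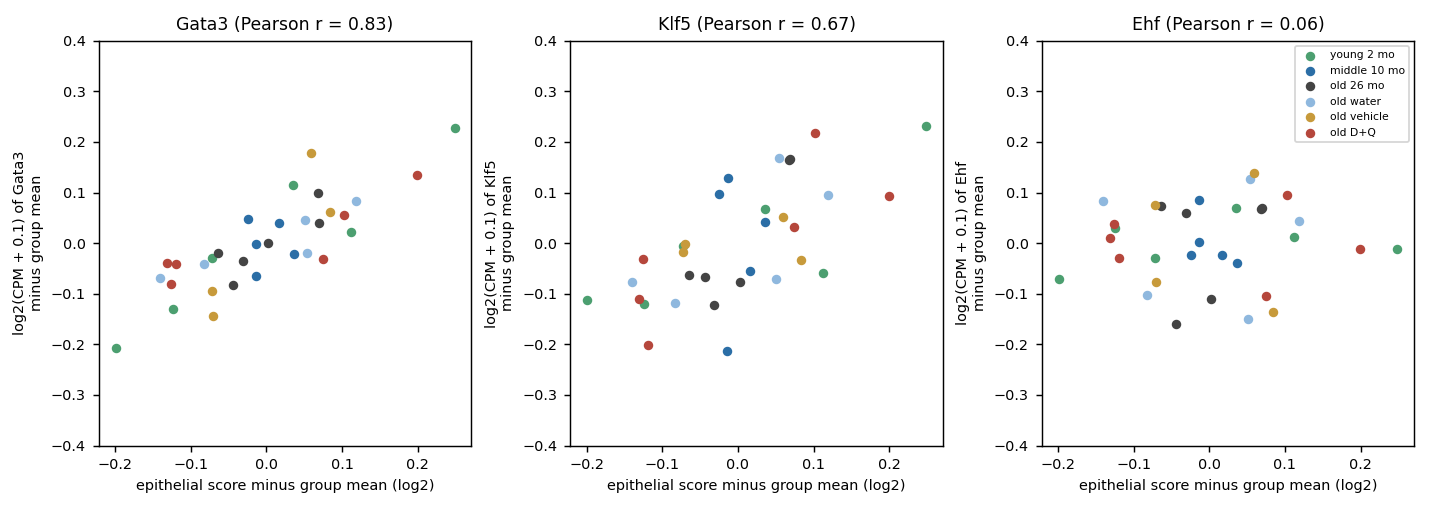
Log2(CPM + 0.1) of Gata3, Klf5 and Ehf minus the group mean (y axis) against the epithelial score minus the group mean (x axis, log2), with 1 point per bladder coloured by group, 32 bladders in each panel. Points rise along the score for Gata3 (r = 0.83) and Klf5 (r = 0.67) and are scattered about 0 for Ehf (r = 0.058).

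Of the cells outside the urothelium that use these genes, fat cells and T cells with innate lymphoid cells were looked at in the same way. Klf5 was not set against the smooth muscle genes. Pparg did not follow the adipocyte score (r = 0.082, rho = 0.13, permutation adjusted p = 0.74), although that list summed to between 25.4 and 193 CPM from bladder to bladder. Gata3 ran against the T cell and innate lymphoid score (r = -0.51, permutation adjusted p = 0.035, rho = -0.48), a relation that was at -0.31 without the 2 bladders farthest from that score's median (vehicle replicates 1 and 3) and so rested on them.

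Levels relative to the epithelial score are given as values with no test, for the 3 genes plotted against it. For the other 6 the means at 2, 10 and 26 months were -0.82, -0.82 and -0.75 in Foxa1, -0.995, -1.09 and -1.04 in Grhl3, -1.55, -1.66 and -1.51 in Pparg, -2.11, -2.01 and -2.03 in Elf3, -0.73, -0.77 and -0.57 in Trp63 and -4.47, -4.45 and -4.41 in Ovol1. Gata3 minus the score was -0.42 ± 0.06 in young bladders (log2, SD, n = 6), at -0.41 ± 0.05 in middle-aged and at -0.39 ± 0.03 in old ones, a shift smaller than the spread. Klf5 went from -1.35 ± 0.09 to -1.16 ± 0.14 and -1.12 ± 0.08, and Ehf from -0.74 ± 0.16 to -0.66 ± 0.07 and -0.57 ± 0.10. After D + Q, Ehf was at -0.76 ± 0.16 and Klf5 at -1.23 ± 0.09, both below untreated old bladders by about the spread. So were the water group (Ehf -0.77 ± 0.16, Klf5 -1.25 ± 0.09) and the vehicle group (Ehf -0.76 ± 0.16, Klf5 -1.20 ± 0.08). Gata3 was also lower than in untreated old bladders, at -0.47 ± 0.08 after D + Q, -0.48 ± 0.06 with water and -0.52 ± 0.08 with vehicle. Means of the other 6 genes were likewise below untreated old bladders in each gavaged group. The same score was taken off every gene.

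Among themselves, after removal of group means, Gata3 and Foxa1 were the closest pair of the 36 (r = 0.71), followed by Grhl3 and Pparg (r = 0.68) and Grhl3 and Foxa1 (r = 0.57). Pparg and Ehf were the most opposed (r = -0.32), then Trp63 and Grhl3 (r = -0.20). Elf3 and Ehf, both ETS factors, had r = -0.053. These values describe 32 bladders that share the same libraries and scaling.

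Of 15055 genes with a mean of at least 1 CPM, the one most like each member over the same 32 bladders was found. For Gata3 it was Shh (r = 0.87), the hedgehog ligand made by basal urothelium, then Agap3 and Spint1 (both 0.84), the latter a membrane inhibitor of serine proteases. For Pparg it was Wnt7b (0.83), a Wnt ligand, then Bcl2l1 (0.83) and Bcam (0.81). Grhl3 was most like AA986860 (0.86), AI661453 (0.85) and Fam83h (0.84). Elf3 was most like Kbtbd11 (0.83), Plin3 and St6galnac2 (both 0.82), and Klf5 most like Pak4 (0.81), Nectin1 (0.80) and Fam84a (0.77). Foxa1 was most like Ripk4 (0.77), a kinase of epithelial differentiation, with Sh3rf1 and Jag1, a Notch ligand, at 0.76. Trp63 was most like Ypel2 (0.82), Tpcn1 (0.80) and Erbb3 (0.79), Ehf most like Igdcc4 (0.77) and Kidins220 (0.76), and Ovol1 most like Gm30177 (0.79) and Hoxb5os (0.76).

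A further list of 12 transcription factors of the urothelium was read from the same fits. From 2 to 10 months 2 of the 12 rose and none fell, where 4.96% of all genes were called higher: Grhl2, the close relative of Grhl3 (38.8 ± 4.1 CPM in young, 47.6 ± 2.4 CPM in middle-aged bladders, log2 difference 0.31), and Rxra, the receptor that pairs with Pparg (239 ± 17 and 270 ± 12 CPM, 0.19). From 10 to 26 months 4 fell and none rose, where 11% of all genes were called lower, among them Zfp750 (-0.20), Rarg, a retinoic acid receptor (-0.14), and Rxra (-0.12). From 2 to 26 months Grhl2 was higher (0.28) and Rarg lower (-0.23), where 25.1% of all genes were called in either direction. In the contrast of the 2 intervals 3 of the 12 were called below 0, beside 3.67% of all genes, among them Zfp750 (-0.45) and Rxra (-0.29). None of the 12 was called by edgeR with water, vehicle or D + Q against untreated bladders, where 5, 0 and 4 of them had an unadjusted p under 0.05, beside 16%, 8.39% and 12.9% of all genes.

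Of 8 PPARG-responsive epithelial and lipid genes, Angptl4, a secreted inhibitor of lipoprotein lipase, fell from 2 to 10 months (-1.42) and rose from 10 to 26 months (1.08), and Plin2, a lipid droplet protein, rose (0.20) in the later interval, in which 2 of the 8 rose and 1 fell. None of the 8 was called between 2 and 26 months (2 had an unadjusted p under 0.05 in edgeR). Of 9 basal urothelium genes, 1 rose and 2 fell from 2 to 10 months, led by Krt14 (-2.66), a basal keratin, with Lamb3 (0.41), a laminin chain, and Itga6 (-0.24), a laminin receptor chain. From 10 to 26 months Krt14 (2.76) and Cd44 (0.31), a hyaluronan receptor, rose and Shh (-0.18) fell. Krt14 was at 3 counts or fewer in 2 bladders. Of the 7 umbrella cell genes, which include the uroplakins of the luminal plaque, none was called from 2 to 10 months (0 at an unadjusted p under 0.05 in edgeR), and 3 fell from 10 to 26 months: Upk2 (-0.23), Upk3a (-0.19) and Upk1a (-0.15). Of all genes, 4.96% were called higher and 5.85% lower from 2 to 10 months, and 13% higher and 11% lower from 10 to 26 months. From 2 to 26 months 25.1% were called in either direction. At an unadjusted p under 0.05 there were 27.2% from 2 to 10 and 36.3% from 2 to 26 months. The counts of these short lists are given beside these shares and were not tested as sets.

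Some reads of these genes could belong to overlapping genes. Gm26642, on the opposite strand of Elf3, held 6.94% as many counts as Elf3, and for Gata3 the opposite-strand gene 4930412O13Rik held 2.96% and the same-strand gene 9230102O04Rik 2.04%. For Ovol1 the opposite-strand gene AC126029.1 held 3.10%. The library kit keeps strand, but the strand setting of the counting was not given in the sources used here. Counts per gene also do not separate the long and short forms of p63 or the starts of Pparg.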

How the data were processed

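RNA was extracted from whole bladders, and strand-preserving total RNA libraries were sequenced. The authors aligned the reads with STAR (2.7.3) to mm10 and deposited whole-number counts per gene from featureCounts of Subread, without normalization, together with exon lengths. The deposited TPM table was not used. Libraries held 15088372 to 52650259 counts, and no normalized value was taken from the deposited files.

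Symbols were matched to 32158 of 32285 Ensembl identifiers. Each pair of groups was fitted on its own with edgeR 4.0.16 (filterByExpr, TMM factors, glmQLFit and glmQLFTest, Benjamini-Hochberg over all genes tested), and a gene was called at an adjusted p under 0.05. The contrasts of age intervals and of gavaged groups used 1 fit over 3 and 4 groups. Levels are CPM with TMM factors over all 32 bladders. TPM were computed from the counts and exon lengths. Scores are means of log2(CPM + 0.1). The fits were tested on simulated counts with planted changes larger than any difference reported for a member. That test therefore does not cover changes of the size reported here. With 4 to 6 bladders a group, the edgeR p-values judge a difference of groups against the spread between single bladders.

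The 9 genes and the other lists were chosen with earlier results of these data known. All 9 are named. From the other lists, up to 4 genes per comparison were named, those past the threshold with the largest log2 fold change, and the 3 genes most like each member. A few genes that this rule picks are not reported here. Alternatives were DESeq2 1.42.0, RLE size factors, no filter, a minimum of 10 counts in every bladder, 1 fit of all 6 groups, the epithelial score as a covariate, a replicate block and leaving out each bladder. Leaving out the 4 bladders under 22000000 counts was chosen after the data were seen. Promoters came from RefSeq on GRCm38.p6, the build of mm10.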

Additional observations from a re-analysis of the deposited data

Results flagged for a closer look

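Within 54 groups of bladders tested for a sample far from the others, 2 stood out, where chance flags about 1 in 20. Elf3 in middle-aged replicate 2 was at 77.7 CPM, above the 60.0 to 63.4 CPM of the other 4. Ovol1 in young replicate 4 was at 17.7 CPM, above the 7.91 to 10.6 CPM of the other 5, and this bladder also had one of the 4 shallow libraries.

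For 4 genes the change from 10 to 26 months differed from the change from 2 to 10 months by a test of the difference itself in edgeR. The contrast was -0.50 for Klf5, -0.34 for Ehf, -0.34 for Gata3 and -0.29 for Foxa1 on the log2 scale. All 4 calls were lost with the epithelial score as a covariate, where the values were -0.22, -0.30, -0.030 and -0.14. That fit cannot separate the score from age, since the score did not overlap between middle-aged and old bladders. The 5 middle-aged bladders enter both changes, and how far they take part was not tested.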

How the results depend on the processing

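The number of members called moved by over 1.5 times with the epithelial score as a covariate (1 in place of 3 from 2 to 10 months, 0 in place of 1 from 10 to 26 months, 0 in place of 4 for the contrast of the intervals), with 1 fit of all 6 groups (0 from 10 to 26 months) and without the 4 bladders under 22000000 counts (7 from 2 to 10 months and 7 for the contrast). Leaving out 1 bladder gave 3 to 6 calls from 2 to 10 months, 1 to 2 from 10 to 26 months (Grhl3 without middle-aged replicate 2), 2 to 5 from 2 to 26 months and 1 to 6 for the contrast. The shares of all genes called in these fits are not given here. Foxa1 from 2 to 26 months was also not called with no filter (0.14, edgeR adjusted p = 0.065) or in 1 fit of all groups (0.14, adjusted p = 0.075). Calls in gavage comparisons were 0 in every alternative. Single-gene results were followed for every member with age. In each gavage comparison only the highest, the lowest and any member at an unadjusted p under 0.05 were followed. Of these 53 single-gene results, 22 changed sign in some alternative, none of them called in either fit. The sign of the other gavage results was not followed. With the score as a covariate the values with changed sign were, from 2 to 10 months, -0.13 in Grhl3, -0.042 in Pparg and -0.15 in Ovol1, from 10 to 26 months 0.087 in Pparg, 0.038 in Foxa1 and 0.14 in Klf5, and from 2 to 26 months -0.037 in Grhl3 and -0.0058 in Ovol1. For the contrast of the intervals they were 0.0045 in Elf3, 0.16 in Grhl3, 0.15 in Pparg, 0.081 in Trp63 and 0.25 in Ovol1, and for gavage -0.0099 in Gata3 (water), -0.081 in Klf5 (vehicle), -0.019 in Klf5 (D + Q against vehicle) and -0.0011 in Elf3 (mean of gavaged groups). Without the shallow bladders they were 0.026 in Ehf (water), -0.0071 in Foxa1 (vehicle against water), -0.015 in Klf5 (D + Q against vehicle) and 0.0091 in Ehf (mean of gavaged groups). Leaving out 1 bladder gave ranges across 0 of -0.044 to 0.024 in Pparg and -0.0028 to 0.088 in Trp63 from 10 to 26 months, -0.039 to 0.074 in Grhl3 from 2 to 26 months, -0.039 to 0.026 in Ehf (water), -0.039 to 0.012 in Ehf (D + Q), -0.078 to 0.080 in Foxa1 (vehicle against water), -0.041 to 0.040 in Klf5 (D + Q against vehicle) and -0.047 to 0.0034 in Ehf (mean of gavaged groups).

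Correlations of same-numbered deviations ran from -0.03 to 0.15 between young and middle-aged bladders, and in no comparison were all over 0.1. The best match had the same number for 3 of 5 bladders in old against middle-aged and 3 of 6 in old against young. Replicate numbers follow the sample titles, and in the middle-aged, water and vehicle groups some differ from the numbers in the library names. The check therefore cannot exclude a pairing. With the numbers as a replicate block, Trp63 was also called from 2 to 26 months (0.22, edgeR adjusted p = 0.0087, 4 members in place of 3, with 23.8% of all genes called). Klf5 was at -0.078 for D + Q against vehicle, and no other member's call changed. Genes called from 2 to 10 months numbered 1811, beside 711 with the block, 328 with the score as a covariate, 2858 in 1 fit of all groups and 3717 without the shallow bladders. From 10 to 26 months they were 4110, 2519 in 1 fit and 226 with the covariate. For the contrast of the intervals they were 1884, 3886 without the shallow bladders and 44 with the covariate. For water they were 173, beside 703 with DESeq2, 99 with no filter, 81 with the covariate, 37 without the shallow bladders and 0 with the block or in 1 fit. Where edgeR called 0 genes, DESeq2 called 132 with vehicle, 185 with D + Q, 11 for D + Q against vehicle and 69 for D + Q against water. The cause of these differences was not tested. Ovol1 had the fewest counts of the 9, from 116 a bladder.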
